A study of Mus musculus with 13 samples.

Results

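Ribosome footprints on 9 enzymes of asparagine, aspartate, alanine, proline, cysteine and methionine metabolism were followed in mouse fibroblasts under endoplasmic reticulum (ER) stress. The enzymes were Asns, Got1, Gpt2, Aldh18a1, Pycr1, Cth, Cbs, Adi1 and Mri1, found by symbol among the 22406 gene symbols of the tables. Their values were read in all 13 libraries, and each treated library was set against the control of its own genotype or cell line. All but Gpt2 and Cbs belong to the group of amino acid synthesis genes that the study drew from its own late-induced genes in the PERK WT libraries, so counts of changed enzymes in PERK WT MEFs are not independent evidence of their direction.

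Asparagine synthetase (Asns) makes asparagine from aspartate and glutamine. Got1, the cytosolic aspartate aminotransferase, and Gpt2, the mitochondrial alanine aminotransferase, exchange amino groups between glutamate and the keto acids that become aspartate and alanine. Aldh18a1, the pyrroline-5-carboxylate synthase, opens the route from glutamate to proline, and Pycr1, a pyrroline-5-carboxylate reductase, closes it. Cystathionine β-synthase (Cbs) and cystathionine γ-lyase (Cth) carry sulphur from homocysteine to cysteine, and Mri1 and Adi1 act in the salvage pathway that returns methylthioadenosine, a by-product of polyamine synthesis, to methionine. In stressed cells the ER kinase PERK phosphorylates eIF2α, which lowers protein synthesis in general but raises translation of ATF4, a transcription factor known for its control of amino acid synthesis and import.

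The study sequenced ribosome-protected fragments from mouse embryonic fibroblasts (MEFs), PERK WT or PERK −/−. These were left untreated or given 1 μM thapsigargin (Tg) for 1, 2, 5 or 8 h. Fragments were also sequenced from NIH3T3 cells, a mouse fibroblast line of WT genotype, left untreated or given 200 nM Tg for 2 or 7 h. Tg blocks the pump that fills the ER with calcium. Each condition was 1 library, so there were no replicates, no test between conditions was possible, and the spread between cultures is unknown. The PERK −/− cultures carried their genotype before treatment too, and the sources used here do not say whether a genotype was kept as more than 1 line. By the study's methods the medium of the MEFs was supplemented with non-essential amino acids, which include asparagine, aspartate, alanine and proline, and with beta-mercaptoethanol, whereas neither is listed for NIH3T3 cells. Cell line, medium, dose and times therefore cannot be told apart between MEFs and NIH3T3 cells. Cells were trypsinized, pelleted in the cold and frozen without cycloheximide, the drug often used to hold ribosomes in place.

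The libraries held 2525029 to 14799515 expected counts, and the limit of 3 counts stood at 0.203 to 1.19 CPM (counts scaled to the library total). The smallest MEF library was PERK WT at 2 h of Tg and the smallest NIH3T3 library was that at 2 h. Eif2ak3, the gene of PERK, was at 21.3, 14.4, 19.0, 33.3 and 32.7 CPM in PERK WT MEFs at control, 1, 2, 5 and 8 h and at 10.99, 8.99, 7.64, 13.2 and 19.1 CPM in PERK −/− MEFs. At all 5 matched times the PERK −/− library held less of it, though footprints assigned to the gene remained, and it was at 25.7 to 49.7 CPM in NIH3T3 cells. Atf4 was at 34.5 TPM in the PERK WT control and at 487 to 576 TPM in the PERK WT Tg libraries, at 25.1 to 60.2 TPM in all PERK −/− libraries, and at 178, 1491 and 527 TPM in NIH3T3 cells at control, 2 h and 7 h. All 8 fibroblast markers had a mean of at least 2 TPM in both MEF genotypes, with summed levels of 5809 to 6600 TPM in PERK WT and 4820 to 7424 TPM in PERK −/− MEFs. NIH3T3 cells had 7 of the 8, Col3a1 lying below, with summed levels of 5271 to 8970 TPM. Summed markers of epithelial, blood, endothelial and muscle cells lay between 0 and 17.7 TPM, with Adgre1, Myod1 and Myog at 0 in all libraries. The neural list summed to 24.5 to 148 TPM, carried by Tubb3 and Map2 in the MEFs, with Gfap and Sox10 at 0, and by Tubb3 in NIH3T3 cells, with Map2 at 0.

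Levels are given as TPM, the length-scaled transcript unit of RSEM, which are corrected for the length of the coding sequence and are shares of a library. A change is the log2 ratio of TPM against the control after values under 4 TPM were raised to 4, and a gene was said to rise or fall when it changed at least 2-fold, the limit of the study. Its interval is the exact conditional (Clopper-Pearson) 95% interval of the log2 ratio of expected counts per library total and covers counting error only. Footprints count ribosomes, so more mRNA and more ribosomes on each mRNA cannot be told apart, nor can a lower level in every cell and fewer cells with the transcript. Changes were followed for the genes with a mean of at least 2 TPM over the libraries of a table, which were 10432 in MEFs and 10117 in NIH3T3 cells. Of the 9 enzymes, 8 passed in either table and Cbs in neither.

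The stretch before the start of 7 of the 9 genes was available from RefSeq (GRCm38.p6), as windows of 250 bases before to 50 bases after the start. They were searched on both strands for TGATGNAA, the letters shared by the elements through which ATF4 and its partners are known to act on amino acid genes. A match was held by 3 of the 7 windows (42.9%), by 1304 of all 32851 mouse windows (3.97%) and by 221 of the 10311 windows of genes expressed in the MEFs (2.14%). The windows of Aldh18a1, Cbs, Gpt2 and Mri1 held none, and those of Adi1 and Cth were not used here. The 3 windows with a match are shown because they let the letters be seen beside the genes whose footprints are described next, with the match in capitals.
Asns promoter (chr6:7693160-7693459, minus strand): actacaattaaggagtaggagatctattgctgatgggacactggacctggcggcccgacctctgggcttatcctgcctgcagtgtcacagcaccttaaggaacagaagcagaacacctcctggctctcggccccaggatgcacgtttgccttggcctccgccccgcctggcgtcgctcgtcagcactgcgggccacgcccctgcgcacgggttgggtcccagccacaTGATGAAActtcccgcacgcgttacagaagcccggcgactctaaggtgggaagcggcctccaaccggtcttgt
Pycr1 promoter (chr11:120643699-120643998, minus strand): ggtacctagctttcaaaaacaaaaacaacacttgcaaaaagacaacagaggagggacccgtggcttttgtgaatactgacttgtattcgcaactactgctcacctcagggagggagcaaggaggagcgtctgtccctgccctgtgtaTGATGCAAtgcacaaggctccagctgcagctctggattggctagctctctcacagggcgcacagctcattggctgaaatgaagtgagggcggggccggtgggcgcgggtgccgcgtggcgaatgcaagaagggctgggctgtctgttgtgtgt
Got1 promoter (chr19:43524556-43524855, minus strand): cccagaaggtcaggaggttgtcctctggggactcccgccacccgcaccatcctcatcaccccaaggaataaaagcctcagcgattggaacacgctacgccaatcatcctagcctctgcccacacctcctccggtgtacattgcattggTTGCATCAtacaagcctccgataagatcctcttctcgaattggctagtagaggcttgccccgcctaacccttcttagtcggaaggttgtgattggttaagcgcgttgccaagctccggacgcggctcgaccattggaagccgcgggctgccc
The match in Asns was TGATGAAA at positions −23 to −16 from the start. Pycr1 held TGATGCAA at −103 to −96. Got1 held TGATGCAA on the opposite strand, printed above as its reverse complement, at −102 to −95. A match is a description of letters, not evidence of a bound site, and no match says only that the letters are not in that window.

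In the untreated MEFs the enzymes fell into a high and a low class. In the PERK WT control the order by TPM was Asns, Got1, Aldh18a1, Adi1, Cth, Mri1, Gpt2, Pycr1 and Cbs, from 67.5 to 0.05 TPM. The first 4 lay between 52.8 and 67.5 TPM, and Pycr1 and Gpt2 were at 5.73 and 10.1 TPM. In the PERK −/− control the same 4 came first, led by Got1 at 62.2 TPM. Between the controls, 0 of the 8 enzymes were at least 2-fold higher and 0 at least 2-fold lower in PERK −/− MEFs, against 6.04% and 1.97% of all 10432 genes. The difference clearest of counting error was that of Asns, at 44.3 TPM in PERK −/− and 67.5 TPM in PERK WT MEFs, a log2 difference of −0.61 (interval −0.76 to −0.47). Aldh18a1 differed by −0.38 (−0.51 to −0.26), and Mri1 by 0.36 (0.04 to 0.66) in the opposite direction. The intervals of the other 5 enzymes included 0. The share of all genes with an interval clear of 0 between the controls was not counted. NIH3T3 cells, whose table was normalized separately, started from another pattern. Their control values were 15.9 times those of the PERK WT control for Pycr1, 10.4 times for Gpt2 and 6.60 times for Asns, 1.61 to 2.41 times for Mri1, Got1, Aldh18a1 and Adi1, and 0.772 times for Cth.

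In PERK WT MEFs all 8 enzymes rose under Tg, 5 of them by 2 h and the others by 5 h. At 1 h none had risen, at 2 h 5 had (Asns, Aldh18a1, Pycr1, Cth and Gpt2), and at 5 h and 8 h all 8 had, Mri1 at 5 h only narrowly. Among all expressed genes 4.33%, 5.66%, 5.86% and 6.45% had risen at 1, 2, 5 and 8 h. None of the 8 fell at any of these times, when 2.29%, 4.01%, 3.55% and 3.87% of all genes had fallen. The 8 had median log2 changes of 0.17, 1.26, 1.86 and 1.86 at these times, and the median of all genes stayed between 0 and 0.01. The summed level of the 9 enzymes was 298 TPM in the control and 323, 628, 945 and 979 TPM at the later times, so at 8 h the sum was 3.29 times that of the control.

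**Figure D1:**
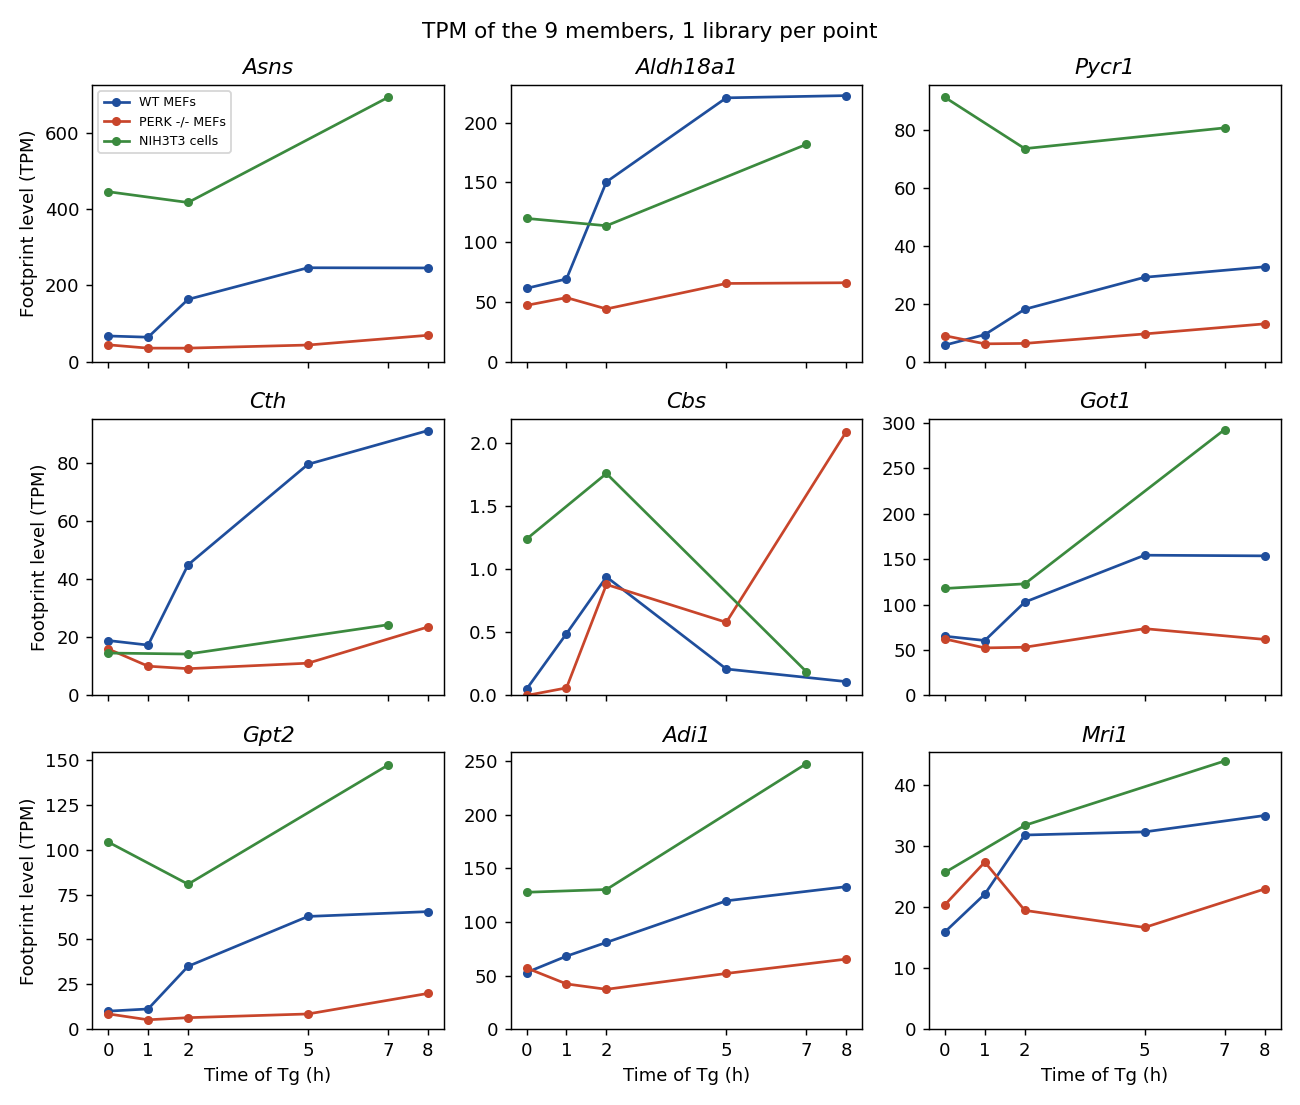
Footprint level in TPM (vertical axis, from 0, its own scale in each panel) against time of Tg in hours (horizontal axis, 0 for the untreated control) for each of the 9 enzymes. Each point is 1 library, in blue for WT MEFs, red for PERK −/− MEFs and green for NIH3T3 cells, and lines only join points. In 8 panels the blue line climbs mainly between 1 and 5 h, while red ends at 8 h below blue, and Cbs never passes 2.09 TPM.

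In PERK −/− MEFs the enzymes did not take this course. None of the 8 had risen at 1, 2 or 5 h, and at 8 h Gpt2 alone had, beside 0.719%, 0.623%, 3.26% and 3.28% of all genes at the 4 times. None fell at 1, 2, 5 or 8 h, beside 3.38%, 5.78%, 4.77% and 2.73% of all genes. The medians of the 8 were −0.37, −0.36, −0.01 and 0.51, against −0.06, −0.11, 0 and 0.04 for all genes. Shifts under 2-fold were beyond counting error for some enzymes, as for many genes. At 1 h the intervals of 5 of the 8 (Asns, Cth, Got1, Gpt2 and Adi1) lay below 0, beside 32.9% of all genes, and those of Aldh18a1 and Mri1 above it, beside 20.8%. At 2 h 4 of the 8 (Asns, Cth, Gpt2 and Adi1) lay below 0, beside 37.5% of all genes. At 5 h those of Aldh18a1 and Got1 lay above 0 and that of Cth below it, and the share of all genes was not counted. At 8 h 5 of the 8 (Asns, Aldh18a1, Pycr1, Cth and Gpt2) lay above 0, beside 31.7%. The summed level went from 265 TPM in the control to 233, 212, 281 and 344 TPM, or 1.30 times the control at 8 h.

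Set side by side, the intervals of the genotypes parted after 1 h. At 1 h the PERK WT interval lay wholly above the PERK −/− interval for 2 of the 8 enzymes, Gpt2 and Adi1, and for 24.4% of all genes. At 2 h, 5 h and 8 h it did so for 8 of 8, and for 27.4%, 25.6% and 23.2% of all genes. Most of the 8 had been drawn by the study from late-induced genes of the same PERK WT libraries. The difference between the genotypes was not tested, since each rests on 1 control and 1 Tg library.

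**Figure D2:**
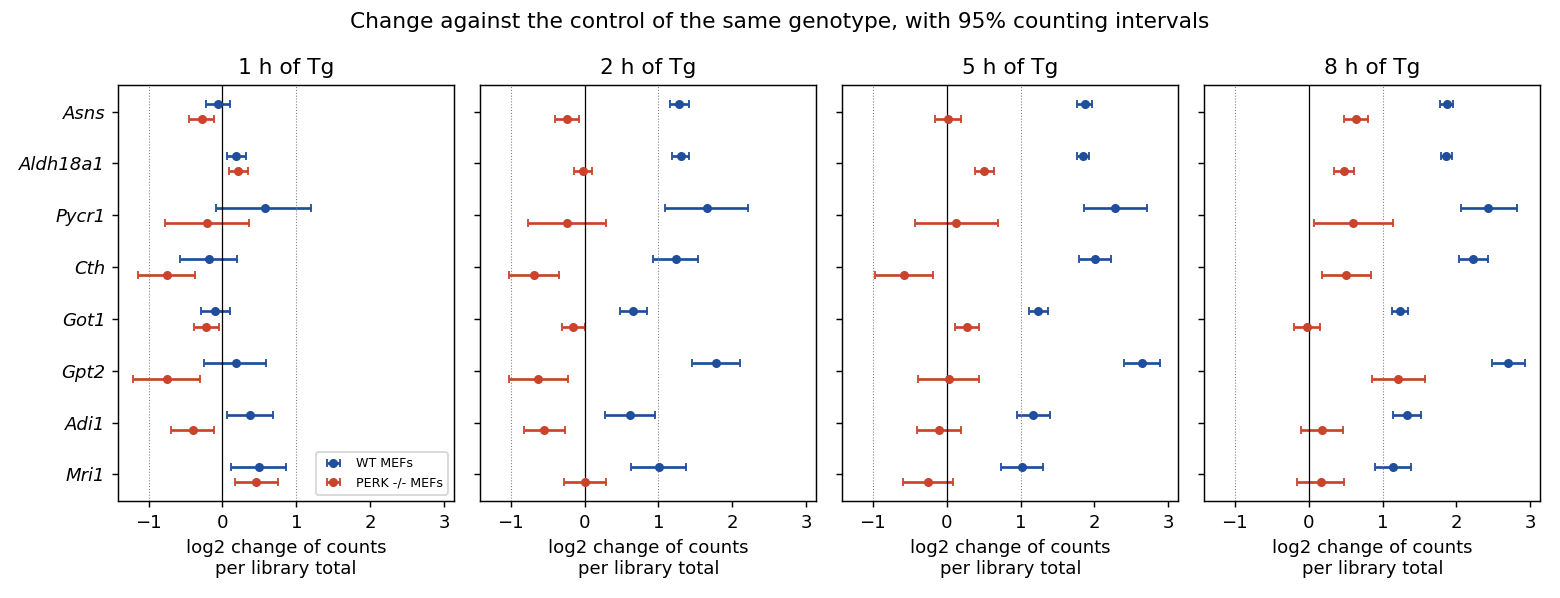
Log2 change of expected counts per library total (horizontal axis) for the 8 enzymes that passed the filter, in 1 panel for each time of Tg. Points are 1 Tg library against its control, blue for WT and red for PERK −/− MEFs, bars are exact 95% counting intervals, and dotted lines mark 2-fold. From 2 h on every blue bar lies to the right of the red bar of the same gene.

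In NIH3T3 cells the response was smaller and of a different make-up. At 2 h none of the 8 enzymes had risen (all genes 5.76%) and none had fallen (all genes 3.76%), and their median change was −0.05 against −0.13 for all genes. Under 2-fold, the intervals of Got1 and Mri1 lay above 0 at 2 h, and that of Gpt2 below 0 (counts −0.29, −0.46 to −0.13). The share of all genes with such intervals at 2 h was not counted. At 7 h Got1 alone had risen, beside 7.01% of all genes, and none had fallen, beside 8.06% of all genes. The intervals of 7 of the 8 lay above 0 at 7 h, beside 31.7% of all genes, and that of Pycr1 lay below 0, beside 41.2% of all genes. The median change of the 8 was 0.69 against 0 for all genes. The summed level of the 9 was 1048 TPM in the control, 988 TPM at 2 h and 1710.5 TPM at 7 h. The NIH3T3 control thus lay above the highest PERK WT value, 979 TPM at 8 h, with the reserve that the tables were normalized separately.

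**Figure D3:**
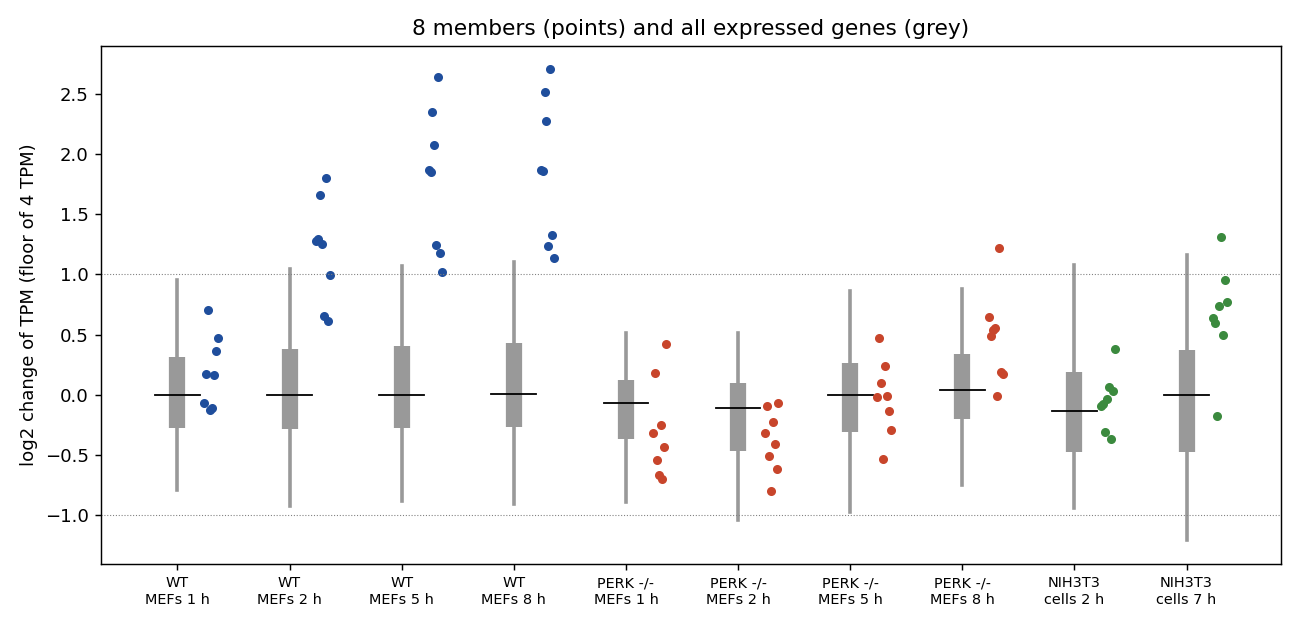
Log2 change of TPM after a floor of 4 TPM (vertical axis) in each of the 10 Tg libraries against its control (horizontal axis). Coloured points are the 8 enzymes, the black line is the median of all expressed genes, the grey box spans their quartiles and the grey line their 5th to 95th percentiles. All 8 points of WT MEFs at 5 h and 8 h lie above the dotted 2-fold line, while those of PERK −/− MEFs and NIH3T3 cells do so for Gpt2 at 8 h and Got1 at 7 h only.

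Asns (chr6:7675169-7693254, minus strand, mm10, 11 coding exons) had the highest level per length of the 9 enzymes in the PERK WT and NIH3T3 controls. In PERK WT MEFs it was at 67.5 TPM in the control and at 64.3, 163, 246 and 246 TPM at 1, 2, 5 and 8 h. The level at 1 h was that of the control within counting error (−0.07, interval −0.22 to 0.10), and it rose 2.42-fold by 2 h and 3.64-fold by 8 h (log2 1.86, 1.78 to 1.95). In PERK −/− MEFs it was at 44.3 TPM in the control and at 35.6, 35.6, 43.7 and 69.3 TPM. The first 2 Tg values lay below the control beyond counting error and that at 8 h above it, at 1.56-fold (0.65, 0.48 to 0.80). NIH3T3 cells held 446, 417 and 693 TPM at control, 2 h and 7 h, so their control alone exceeded every MEF library, and the value at 7 h was 1.55 times the control (0.64, 0.59 to 0.68).

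Got1 (chr19:43499752-43524605, minus strand, 9 coding exons) can make aspartate, a substrate of Asns. Its PERK WT levels were 65.2 TPM in the control and 60.5, 103, 154 and 154 TPM under Tg. It passed 2-fold between 2 and 5 h, with 1.58-fold at 2 h and 2.36-fold at 8 h (1.24, 1.13 to 1.35). In PERK −/− MEFs the 5 libraries lay between 52.3 and 73.5 TPM, with the control at 62.2 and the 8 h library at 61.7 TPM. At 5 h Got1 lay above the control there (0.24, 0.11 to 0.44), and at 8 h it was the enzyme nearest to no change (−0.01, −0.19 to 0.15). In NIH3T3 cells it was at 118, 123 and 292 TPM, the only rise among the enzymes in that line at 2.48-fold (1.31, 1.22 to 1.40), and of a size with that in PERK WT MEFs at 5 and 8 h.

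Gpt2 (chr8:85492576-85527560, plus strand, 11 coding exons) had the steepest climb. From 10.1 TPM in the PERK WT control it came to 11.3, 35.1, 62.9 and 65.5 TPM, a 6.50-fold rise at 8 h (2.70, 2.48 to 2.93) reached or passed by 0.278% of expressed genes. In PERK −/− MEFs its levels were 8.55 TPM in the control and 5.27, 6.44, 8.51 and 19.95 TPM under Tg. The first 2 of these lay below the control beyond counting error, and the 8 h library lay above it, 2.33-fold (1.22, 0.86 to 1.58). Counts and TPM gave somewhat different sizes at 2 h, with log2 changes of −0.63 (−1.02 to −0.23) and −0.41. NIH3T3 cells held 104, 80.8 and 147 TPM, so the untreated line already lay above the PERK WT MEFs at 8 h, and its own change at 7 h was 1.41-fold (counts 0.57, 0.47 to 0.67).

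The proline pair showed the same order of times from very different levels. Aldh18a1 (chr19:40550257-40588463, minus strand, 17 coding exons, overlapping the processed pseudogene Gm15801 on the same strand) was at 61.4 TPM in the PERK WT control and at 69.2, 150.4, 221 and 223 TPM under Tg. It rose 2.45-fold by 2 h and 3.63-fold by 8 h (1.86, 1.78 to 1.94), nearly the figures of Asns. In PERK −/− MEFs it was at 47.1 TPM in the control and at 53.6, 44.2, 65.5 and 66.1 TPM, and its interval lay above 0 at 1, 5 and 8 h, where the log2 change was 0.19, 0.47 and 0.49. NIH3T3 cells held 119.9, 114 and 182 TPM, 1.52-fold above control at 7 h (0.60, 0.53 to 0.67).

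Pycr1 (chr11:120635712-120643769, minus strand, 7 coding exons) was the thinnest of the 8 in the PERK WT control, with 69 expected counts and 5.73 TPM. Under Tg it was at 9.36, 18.1, 29.2 and 32.8 TPM, a 3.16-fold rise at 2 h and a 5.72-fold rise at 8 h (counts 2.43, 2.05 to 2.82). The PERK −/− libraries held 49 to 91 counts each, at 8.99 TPM in the control and 6.18, 6.32, 9.60 and 13.1 TPM under Tg. At 1, 2 and 5 h their intervals included 0, and at 8 h the interval was 0.07 to 1.14. At 1 h the TPM and count changes in PERK −/− MEFs were −0.54 and −0.21, so the scales differed by more there than for the other enzymes at that time. NIH3T3 cells had 91.4, 73.6 and 80.8 TPM, and Pycr1 was the only one of the 8 whose NIH3T3 level at 7 h lay below the control beyond counting error (0.884-fold, counts −0.20, −0.36 to −0.04).

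The cysteine pair parted in level. Cth (chr3:157894248-157925077, minus strand, 12 coding exons, overlapping Gm43314 on the same strand) was at 18.9 TPM in the PERK WT control and at 17.3, 45.0, 79.5 and 91.1 TPM under Tg. Its rise was 2.38-fold at 2 h, 4.21-fold at 5 h and 4.82-fold at 8 h (counts 2.23, 2.04 to 2.42). In PERK −/− MEFs Cth was at 16.0 TPM in the control and at 10.1, 9.22, 11.1 and 23.6 TPM. It was the only enzyme whose interval lay below 0 there at 1, 2 and 5 h alike, down to a log2 change of −0.80 at 2 h (counts −0.69, −1.03 to −0.34), before 1.47-fold above control at 8 h. NIH3T3 cells were at 14.6, 14.3 and 24.3 TPM, so Cth was the only enzyme of the 8 with a lower control in that line than in the PERK WT MEFs.

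Cbs (chr17:31608894-31637238, minus strand, 16 coding exons), the step before Cth, had almost no footprints. The PERK WT libraries held 1, 3, 4, 2 and 2 expected counts at control, 1, 2, 5 and 8 h, and NIH3T3 cells 26, 9 and 2 at control, 2 h and 7 h. In PERK −/− MEFs there were 0 in the control and 1, 23, 8 and 26 under Tg. Taken against the limit of 3 counts in that control, the level was at least 3.49-fold higher at 2 h, 2.24-fold at 5 h and 7.84-fold at 8 h, without the counting error of the Tg libraries themselves. With it, the lower ends of the log2 intervals were 1.39, 0.52 and 2.57, and the highest value was 2.09 TPM. No fold change is given for PERK WT MEFs, whose counts were at or next to the limit. Their interval at 2 h, 0.91 to 9.86, also lay above 0, on 4 counts against 1. The levels at 2 h were alike, at 1.58 CPM in PERK WT and 1.55 CPM in PERK −/− MEFs, in the smallest and the largest library. At 5 h they were 0.356 and 0.996 CPM and at 8 h 0.179 and 3.49 CPM. In NIH3T3 cells the counts changed by −2.75 from control to 7 h, with an interval of −5.87 to −0.75.

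Adi1 and Mri1, of the methionine salvage pathway, had 2 of the 3 smallest changes in PERK WT MEFs at 8 h. Adi1, an acireductone dioxygenase (chr12:28675231-28682175, plus strand, 4 coding exons, with Mir6937 inside the gene on the same strand), was at 52.8 TPM in the PERK WT control and at 68.1, 80.9, 119.6 and 133 TPM, a 1.53-fold change at 2 h, a 2.26-fold rise at 5 h and a 2.51-fold rise at 8 h (1.33, 1.13 to 1.53). The PERK −/− libraries held 57.1 TPM in the control and 42.2, 37.2, 52.0 and 65.3 TPM. The log2 changes were −0.44 and −0.62 at 1 and 2 h, both below 0 beyond counting error. That at 2 h was 0.30 in a single random thinning of the counts to the smallest library. NIH3T3 cells held 128, 130.15 and 247 TPM, just under 2-fold at 7 h (1.94-fold, 0.95, 0.81 to 1.10).

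Mri1, the methylthioribose-1-phosphate isomerase (chr8:84249906-84257326, minus strand, 5 coding exons), was at 15.9 TPM in the PERK WT control and at 22.1, 31.8, 32.3 and 34.9 TPM. It stayed just under the limit at 2 h (1.997-fold) and was 2.03-fold at 5 h and 2.20-fold at 8 h (1.14, 0.90 to 1.38). At 5 h Mri1 fell short of 2-fold in 4 of 9 alternatives, with log2 changes of 0.98 with a pseudocount, 0.94 with TMM factors, 0.94 with DESeq2 size factors and 0.63 with the trend on the GC content of coding sequences removed, and at 8 h in the last alone, with 0.70. Its PERK −/− levels were 20.3 TPM in the control and 27.3, 19.4, 16.6 and 22.9 TPM, and the 1 h library lay above the control by nearly as much as in PERK WT MEFs (log2 0.43 and 0.47). NIH3T3 cells held 25.6, 33.3 and 43.9 TPM, 1.71-fold at 7 h.

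Neighbouring time points showed when the levels moved. In PERK WT MEFs the median step of the 8 enzymes was 1.04 on the log2 scale from 1 to 2 h, when 4 of the 8 and 2.01% of all genes went up at least 2-fold, 0.59 from 2 to 5 h and 0.09 from 5 to 8 h. The course was thus nearly over by 5 h. In PERK −/− MEFs the step from 1 to 2 h was −0.06, that from 2 to 5 h 0.44 and that from 5 to 8 h 0.45, and Cth (2.12-fold) and Gpt2 (2.34-fold) made the largest steps after 5 h. The step from 2 to 7 h in NIH3T3 cells was 0.75. Over all expressed genes the medians of these steps lay between −0.02 and 0.09.

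Other genes of the same pathways were taken from 4 lists, for asparagine, aspartate and alanine, for proline, for cysteine, and for methionine, with 37 expressed genes beside the 8 in MEFs and 36 in NIH3T3 cells. In PERK WT MEFs 1, 2, 1 and 1 of the 37 rose at 1, 2, 5 and 8 h and 1, 1, 1 and 2 fell, with medians of 0.11, 0.09, 0.13 and 0.24. Of all genes 4.33%, 5.66%, 5.86% and 6.45% rose and 2.29%, 4.01%, 3.55% and 3.87% fell, with medians between 0 and 0.01. In PERK −/− MEFs 0, 0, 1 and 2 rose and 2, 2, 3 and 0 fell, with medians of 0, −0.05, −0.03 and 0.04. Of all genes there 0.719%, 0.623%, 3.26% and 3.28% rose and 3.38%, 5.78%, 4.77% and 2.73% fell, with medians of −0.06, −0.11, 0 and 0.04. In NIH3T3 cells 2 and 3 of 36 rose at 2 and 7 h and 1 and 2 fell, with medians of −0.17 and −0.07. Of all genes there 5.76% and 7.01% rose and 3.76% and 8.06% fell, with medians of −0.13 and 0. With so few listed genes these counts are a description only. Some of these calls rest on under 100 counts, and those of Ahcy and Amd1 are shared with near-identical copies.

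Some genes beside the 8 in the chain of reactions, picked for their place there, are given for PERK WT MEFs at 8 h. Got2, the mitochondrial aspartate aminotransferase, was at 1.33-fold (290.5 against 218 TPM), and Oat, which makes the same proline precursor from ornithine, at 1.58-fold (219 against 138 TPM). Pycrl, on the proline list with Pycr1, was at 1.33-fold (76.4 against 57.5 TPM). In PERK −/− MEFs at 8 h Got2, Oat and Pycrl were at 1.07-fold, 1.49-fold and 0.882-fold. In the salvage pathway Apip and Enoph1, which act between Mri1 and Adi1, were at 1.18-fold and 0.768-fold, and Mtap, which opens the pathway, fell from 377 TPM to 186 TPM (−1.02, −1.10 to −0.94). Mtap had already fallen at 5 h, while Mri1 and Adi1 were up. Lower levels of Mtap were not limited to PERK WT MEFs. In PERK −/− MEFs its log2 changes were 0.19, 0.14, −0.34 and −0.75 (interval −0.86 to −0.65) at 1, 2, 5 and 8 h. In NIH3T3 cells they were −0.18 at 2 h and −0.51 at 7 h (−0.58 to −0.44).

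Chac1, which breaks down glutathione and so releases cysteine-containing dipeptides, was the only listed gene to rise at every time in PERK WT MEFs. It went from 10.6 TPM to 72.2, 231, 184 and 186 TPM, 21.8-fold at 2 h (4.45, 4.10 to 4.82), and was 6.80-fold up at 1 h, when none of the 8 enzymes had risen. In PERK −/− MEFs it was at 15.3 TPM in the control, at 12.1, 7.75 and 3.86 TPM at 1, 2 and 5 h, the last on 20 counts, and at 32.9 TPM at 8 h (2.14-fold). In NIH3T3 cells it was at 101, 303 and 317 TPM, so it had risen 3.01-fold at 2 h, when the 8 enzymes had not moved as far as 2-fold.

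The remaining listed genes that passed 2-fold on at least 100 counts were these. Gclc, the catalytic subunit of the enzyme that opens glutathione synthesis, rose 2.27-fold in PERK −/− MEFs at 8 h (17.6 to 40.1 TPM). Aldh4a1, which breaks down the proline precursor, fell there at 1 and 2 h (18.1 to 8.09 and 7.05 TPM), as did Csad, which leads from cysteine to taurine (14.8 to 7.39 and 6.97 TPM). Mat2a, which makes S-adenosylmethionine from methionine, fell in NIH3T3 cells at 7 h from 146 TPM to 71.0 TPM (−1.04, −1.18 to −0.90).

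**Figure D4:**
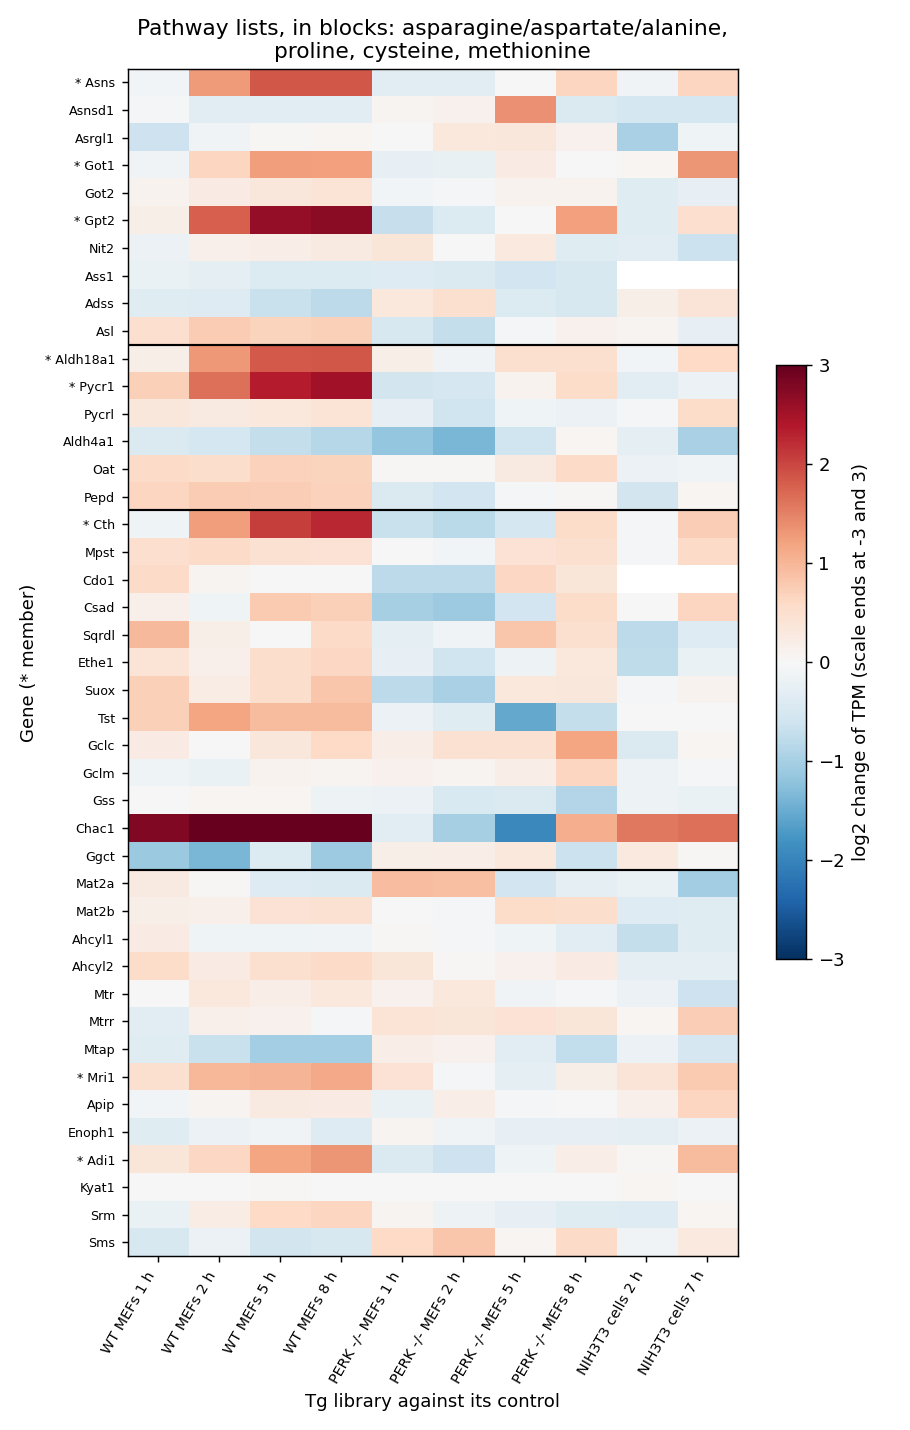
Log2 change of TPM against the control in the 10 Tg libraries (columns), as colour, red up and blue down, ending at −3 and 3. Rows are the expressed genes of the 4 lists without Ahcy, Amd1 and Amd2, in blocks, with * for the 8 enzymes. Cells are white where a gene did not pass the filter, and small changes are near white too. In the WT columns at 5 h and 8 h the 8 enzymes and Chac1 are the only rows above a log2 change of 1, and the 8 enzymes stay between −0.80 and 0.47 at 1, 2 and 5 h of PERK −/− MEFs.

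The genes most like each enzyme were found by the root-mean-square difference of the log2 changes over the 10 Tg libraries. They were sought among 6337 genes expressed in both tables. These had at least 100 counts in the PERK WT library at 8 h and in the NIH3T3 library at 7 h. Genes with few footprints under late Tg were thus left out. The median of that difference over all genes was 1.02 for Asns and for Aldh18a1. It was 1.43 for Gpt2, 1.29 for Pycr1, 1.17 for Cth, 0.81 for Got1, 0.79 for Adi1 and 0.77 for Mri1. Distances of different enzymes are therefore on different scales. Nearest to Aldh18a1 were Slc7a1 (0.15) and Slc7a5 (0.16), carriers of cationic and of large neutral amino acids, and then Asns (0.25). Nearest to Asns were Cyb5r1 (0.21), Lonp1 (0.21), a mitochondrial protease, and Slc7a1 (0.23). Cth was closest to Asns (0.29), Lonp1 (0.31) and Cnppd1 (0.33), and Gpt2 to Pck2 (0.32), the mitochondrial phosphoenolpyruvate carboxykinase, Smim14 (0.37) and Pycr1 (0.37). Pycr1 had Sash1 (0.36), Eif4ebp1 (0.36) and Gpt2 (0.37). Got1 had Nars (0.22), the asparaginyl-tRNA synthetase, Osbp (0.23) and Dennd4a (0.25). Nearest to Adi1 were Arhgef2 (0.14), Sars (0.21) and Sec61b (0.21), and nearest to Mri1 Kdm5b (0.19), Srsf2 (0.20) and Tars (0.20). The 10 comparisons share 3 controls, so likeness here is a description of values only.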

How the data were processed

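All 13 footprint libraries were analysed, each the only one of its condition, and grouped by the labels. By the study's methods, fragments of 22 to 34 nt were kept, rRNA and tRNA reads were removed with STAR, the rest was aligned with Bowtie2 to mm10 RefSeq coding sequences clipped by 30 nt at each end and longer than 100 nt, and RSEM was run. Tool versions are not given in the sources used here. Deposited per gene were the authors' expected counts, which are whole numbers and unscaled. The TPM values were deposited by the authors as scaled within each library by RSEM, so they are relative and do not carry the overall fall in translation.

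The filter kept genes whose mean reached 2 TPM, and values under 4 were raised to 4, as in the study. With 1 library per condition no test was made. Intervals have 95% confidence and cover counting error only, as footprints without molecular identifiers are not independent molecules. The computation was tested on simulated data. The 9 enzymes, the pathway lists and the motif were chosen with earlier results of these data known. Named were the 9 enzymes, Eif2ak3, Atf4, listed genes at least 2-fold changed on at least 100 counts (at most 8 per cell type), and the 3 genes most like each enzyme that rose. Got2, Oat, Pycrl, Apip and Enoph1 were added after their values were seen, for their place beside the enzymes. A listed gene is not reported here and was left out of the list counts.

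The results were recomputed with 1.5-fold and 3-fold limits, a floor or a pseudocount of 1 TPM, no filter or a mean of at least 5 TPM, counts per library total, counts scaled by TMM or by DESeq2, counts thinned to the depth of the smallest library and, chosen after seeing the data, a lowess correction (fraction 0.3) for coding GC content. The thinning was a single random draw. Gene positions came from GENCODE for GRCm38 (the assembly of mm10) and promoter windows from RefSeq for GRCm38.p6. Python 3.11.15 (scipy 1.17.1, statsmodels 0.14.6, pandas 2.3.3, numpy 2.4.6, matplotlib 3.10.9) and R 4.3.3 (DESeq2 1.42.0, edgeR 4.0.16) were used.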

Additional observations from a re-analysis of the deposited data

Results flagged for a closer look

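For 4 enzymes the change in PERK WT MEFs lay above 0 and that in PERK −/− MEFs below 0 at the same time of Tg, both beyond counting error. The difference between the genotypes was not tested in any of these cases, since each rests on 1 library per condition. The share of all genes that did the same was not counted, so the number of enzymes is a description only. A wider rule asks only that the PERK WT interval lie wholly above the PERK −/− interval. It was met by 24.4%, 27.4% and 25.6% of all genes at 1, 2 and 5 h. Values are log2 changes of TPM, and the difference is PERK WT minus PERK −/−.

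Asns at 2 h was at 1.28 in PERK WT and −0.31 in PERK −/− MEFs, a difference of 1.59. Cth differed by 2.05 at 2 h (1.25 against −0.80) and by 2.60 at 5 h (2.07 against −0.53), and was the only enzyme at 5 h with both intervals clear of 0 on opposite sides. Gpt2 differed by 2.21 at 2 h (1.80 against −0.41). Adi1 was the only enzyme to meet this already at 1 h, with a difference of 0.80 (0.37 against −0.44), followed by 1.23 at 2 h (0.61 against −0.62). In the thinned counts, a single random draw, Adi1 at 2 h in PERK −/− MEFs was at 0.30 and no longer opposite. All times shared the thinned control of that draw, and Adi1 lay higher in it at 1, 5 and 8 h too (−0.11, 0.44 and 0.50).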

How the results depend on the processing

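Over 30 counts and medians and their 310 alternatives, 293 stayed within their limit, 17 moved and 0 reversed. The limit of a median ran from the lowest to the highest enzyme, a range it can hardly leave. A count stayed within its limit when unchanged or, where neither count was 0, when changed by a factor of at most 1.5. Only a median of at least 2-fold could be called reversed, and never a count. The tally is therefore not evidence of stability. Another fold limit moved counts of enzymes most often. With 1.5-fold, 1, 8 and 2 had risen in PERK WT MEFs at 1 h and 2 h and in PERK −/− MEFs at 8 h (against 0, 5 and 1 with 2-fold), 6 in NIH3T3 cells at 7 h (against 1), and 2 had fallen in PERK −/− MEFs at 1 h and 2 at 2 h (against 0). With 3-fold, 2, 5 and 5 had risen in PERK WT MEFs at 2, 5 and 8 h (against 5, 8 and 8), and 0 in PERK −/− MEFs at 8 h and in NIH3T3 cells at 7 h. The shares of all genes at 1.5-fold and 3-fold were not counted, so these counts show only how the limits act. In PERK −/− MEFs at 2 h, for scale, the lower quartile of all genes was −0.47. In counts thinned to the smallest library, 1 had risen in PERK WT MEFs at 1 h and 1 had fallen in PERK −/− MEFs at 1 h and at 2 h, against 0 each. With TMM factors, DESeq2 size factors or the GC trend removed, Adi1 joined Got1, so 2 had risen in NIH3T3 cells at 7 h, against 1. Apart from the fold limits and the thinning, the cause of these shifts was not tested. Of 23 changes of at least 2-fold, 2 fell short of 2-fold under some alternative, those of Mri1 in PERK WT MEFs at 5 and 8 h. Of 88 changes of single enzymes, 14 changed sign somewhere, among them Asns and Cth in PERK WT MEFs at 1 h and Asns, Aldh18a1 and Cth in NIH3T3 cells at 2 h (0.09, 0.10 and 0.15 with DESeq2 size factors, which moved the median of all genes there by 0.13 and in PERK −/− MEFs at 2 h by 0.11). No paired analysis was possible because each condition was 1 library, and for the same reason no replicate could be left out. Depth limited Pycr1, Gpt2, Cth and Mri1 most, with 31 to 89 counts in the PERK WT library at 1 h.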

Other observations

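Ahcy, which splits S-adenosylhomocysteine, shares footprints with the near-identical Gm4737. Its own log2 change of TPM was −1.33 in PERK −/− MEFs at 5 h and 3.46 in NIH3T3 cells at 7 h, but the counts summed over both changed by 0.15 (0.07 to 0.22) and −0.66 (−0.77 to −0.54). The division between the copies is therefore uncertain, and so is the direction for Ahcy alone. Amd1 and its copy Amd2, the adenosylmethionine decarboxylase of polyamine synthesis, are divided as uncertainly. In NIH3T3 cells Amd1 went from 638 to 72 counts between control and 7 h and Amd2 from 0 to 72 counts, while their sum changed by −1.20 on the log2 scale (−1.47 to −0.93).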
